A study of Chlorocebus aethiops with 12 samples.

Results

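The transcripts described here are ZSCAN1 (NM_182572), ASIP (NM_001672), SCAF1 (NM_021228) and CBX2 (NM_032647), 4 of the 32379 accessions on the array, measured by 5 of its 41000 probes. They were chosen by the measured levels themselves, for a lower effect of dexamethasone (Dex) in cells given MDFIC than in cells without it, so the difference between those effects is given below as a description with no test. The same holds for the Dex effects and the MDFIC effects that make up that difference, since they come from the same arrays. All 5 probes passed the filter on dim probes.

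The cells were COS-1, a fibroblast-like line from African green monkey kidney, and every group carried transfected glucocorticoid receptor (GR). GR+MDFIC Dex cells received GR and MDFIC and then 100 nM Dex for 6 h, and GR+MDFIC vehicle cells received both plasmids and vehicle for 6 h. GR Dex cells received GR alone and 100 nM Dex for 6 h, and GR vehicle cells received GR alone and vehicle for 6 h. Treatment began 48 h after FuGENE6 transfection, in charcoal-stripped serum, and each group had 3 biological replicates, each on 1 array. The transfection was transient, and the species of the constructs and the share of cells that took them up are not given in the sources used here. The probes were designed on human transcripts and the RNA was from a monkey, and how well each probe matches the monkey transcript was not tested. With bulk RNA, fewer cells expressing a transcript and less of it per cell cannot be told apart.

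GR is a transcription factor that moves to the nucleus when it binds a glucocorticoid such as Dex, and it activates or represses genes from there. MDFIC is a protein with the cysteine-rich I-mfa domain, through which it binds transcription factors and the cyclin T subunit of the elongation factor P-TEFb. The 4 transcripts encode proteins of unlike kinds. ZSCAN1 is a zinc finger protein with a SCAN domain, a module through which such proteins pair. CBX2 is a chromobox subunit of Polycomb repressive complex 1 that binds methylated histone H3. SCAF1 is an arginine- and serine-rich protein that associates with the tail of RNA polymerase II and with splicing. ASIP is the agouti signaling protein, a secreted antagonist of melanocortin receptors that shifts pigment synthesis in mouse hair.

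Levels are the log2 of the background-corrected signal relative to the 75th percentile of the same array, so a negative level lies below that percentile. The 12 arrays lay on 3 slides, and the slides were not balanced over the groups. Slide 1 held the 3 GR vehicle arrays and GR Dex replicate 1. Slide 2 held GR Dex replicates 2 and 3 with GR+MDFIC vehicle replicates 1 and 2, and slide 3 held GR+MDFIC vehicle replicate 3 with the 3 GR+MDFIC Dex arrays. The 75th percentile of signal averaged 385.5 on slide 3, against 867.9 on slide 2 and 849.9 on slide 1. Slide 3 was also read with another version of the extraction software and 2 scan passes, against 1 pass on the others. Between 70.3% and 75.2% of spots per array were well above background, and the lowest correlation between replicates was 0.983 across probes.

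Of the 60 values from the 5 probes on 12 arrays, 60 were well above background, 0 were saturated and 0 carried an outlier flag on the spot. The ZSCAN1 spot on GR Dex replicate 2 was the 1 value with a flag on its local background. By that flag each member value below is a measured level and not a bound. The ASIP and CBX2 levels on the GR+MDFIC Dex arrays still rested on a few units of signal, and depended on the background correction. The correction tried instead, normexp, also adds an offset of 50 to every spot and was run with quantile scaling.

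ZSCAN1 and CBX2 were both more than 4-fold lower after Dex in GR+MDFIC cells, and their Dex effects in GR cells were -0.11 and -0.25 on the log2 scale. ASIP and the brighter SCAF1 probe were about 2.4-fold lower after Dex in GR+MDFIC cells. With normexp background correction and quantile scaling the same falls were 2.19-fold for ZSCAN1, 1.68-fold for CBX2, 1.30-fold for ASIP and 2.23-fold for SCAF1. The offset of 50 in that run draws the fold of a dim probe towards 1, and its part in these smaller falls was not tested. The second SCAF1 probe had no Dex effect beyond its SE and was 0.11 higher with MDFIC in vehicle on the log2 scale. SCAF1's brighter probe was also several-fold higher with MDFIC in vehicle, which set it apart from the other 3 in pattern, and its level after Dex was still above that of GR cells.

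The ZSCAN1 probe (A_23_P322395) had levels of -4.30, -4.52 and -4.59 on the GR+MDFIC Dex arrays, against -2.35, -2.24 and -2.27 on the GR+MDFIC vehicle arrays. It had -2.50, -2.69 and -2.67 on the GR Dex arrays, against -2.39, -2.50 and -2.62 on the GR vehicle arrays. All 3 GR+MDFIC Dex arrays lay far below the other 9, which lay close to each other, and the GR Dex and GR vehicle arrays overlapped. Before background correction the ZSCAN1 spots on the GR+MDFIC Dex arrays read 44, 41.5 and 44 with local backgrounds of 24, 22 and 23. On GR+MDFIC vehicle replicate 3 the spot read 114 with a local background of 23. The mean level was -4.47 ± 0.15 in GR+MDFIC Dex, -2.29 ± 0.056 in GR+MDFIC vehicle, -2.62 ± 0.11 in GR Dex and -2.51 ± 0.11 in GR vehicle cells (SD, n = 3 each). The Dex effect was -2.19 ± 0.090 in GR+MDFIC cells (log2, SE), which is 4.55-fold lower, against -0.11 ± 0.090 in GR cells. The difference between these effects was -2.07 ± 0.13. In vehicle, ZSCAN1 was 0.22 higher on the log2 scale in GR+MDFIC cells than in GR cells.

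The CBX2 probe (A_23_P353567) had levels of -5.83, -5.05 and -5.82 on the GR+MDFIC Dex arrays, against -3.36, -3.32 and -3.47 on the GR+MDFIC vehicle arrays. It had -2.83, -2.82 and -2.79 on the GR Dex arrays, against -2.59, -2.43 and -2.66 on the GR vehicle arrays. No group overlapped another, and the order was GR+MDFIC Dex, GR+MDFIC vehicle, GR Dex and GR vehicle from lowest to highest. GR+MDFIC Dex replicate 2 lay above the other two arrays of its group, and the SD of that group (0.45) was the widest of the 20 probe and group combinations. Before background correction the CBX2 spots on the GR+MDFIC Dex arrays read 31, 34 and 32 with local backgrounds of 22, 23 and 21, against 61 with a local background of 22 on GR+MDFIC vehicle replicate 3, so the level after Dex rested on a few units of signal. The Dex effect was -2.18 ± 0.18 in GR+MDFIC cells, which is 4.54-fold lower, against -0.25 ± 0.18 in GR cells, and the difference between them was -1.93 ± 0.25. CBX2 was 1.77-fold lower with MDFIC in vehicle, so it had the lower vehicle level before Dex was added.

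The ASIP probe (A_23_P120629) had levels of -5.63, -5.76 and -5.87 on the GR+MDFIC Dex arrays, against -4.47, -4.39 and -4.57 on the GR+MDFIC vehicle arrays. It had -4.45, -4.47 and -4.53 on the GR Dex arrays, against -4.29, -4.30 and -4.59 on the GR vehicle arrays. The 3 GR+MDFIC Dex arrays were the 3 lowest, and the other 3 groups overlapped. Before background correction the ASIP spots on the GR+MDFIC Dex arrays read 31, 30 and 32.5 with local backgrounds of 24, 22 and 23, against 42 with a local background of 22 on GR+MDFIC vehicle replicate 3, the vehicle array of the same slide. The level after Dex thus rested on a few units of signal above background. The Dex effect was -1.28 ± 0.092 in GR+MDFIC cells, which is 2.42-fold lower, against -0.090 ± 0.092 in GR cells, and the difference between them was -1.19 ± 0.13.

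SCAF1 was measured by 2 probes, and they differed in what they showed. The brighter probe (A_32_P377577), which stands for the accession, had levels of 3.23, 3.26 and 3.23 on the GR+MDFIC Dex arrays, against 4.48, 4.72 and 4.33 on the GR+MDFIC vehicle arrays. It had 1.77, 1.74 and 1.71 on the GR Dex arrays, against 1.99, 1.85 and 1.75 on the GR vehicle arrays. Both groups with MDFIC lay above both groups without it, Dex lay below vehicle with no overlap in GR+MDFIC cells, and the GR groups overlapped. The Dex effect was -1.27 ± 0.093 in GR+MDFIC cells, which is 2.41-fold lower, against -0.12 ± 0.093 in GR cells, and the difference between them was -1.15 ± 0.13. With MDFIC, this probe was 6.26-fold higher in vehicle and 2.83-fold higher in Dex.

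The second SCAF1 probe (A_24_P117672) had levels of -1.28, -1.26 and -1.34 on the GR+MDFIC Dex arrays, against -1.28, -1.27 and -1.29 on the GR+MDFIC vehicle arrays. It had -1.34, -1.36 and -1.44 on the GR Dex arrays, against -1.45, -1.37 and -1.35 on the GR vehicle arrays. Dex and vehicle arrays overlapped in both kinds of cells, and all 12 arrays lay within a narrow range. The Dex effect was -0.012 ± 0.046 in GR+MDFIC cells, against 0.012 ± 0.046 in GR cells, and MDFIC in vehicle gave 0.11 ± 0.046. The difference between the Dex effects was -0.024 ± 0.065 for this probe. When the mean of both probes stood for SCAF1, the difference was -0.59. Which part of the transcript each probe matches is not given in the sources used here, so the 2 probes cannot be assigned to forms of SCAF1.

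**Figure D1:**
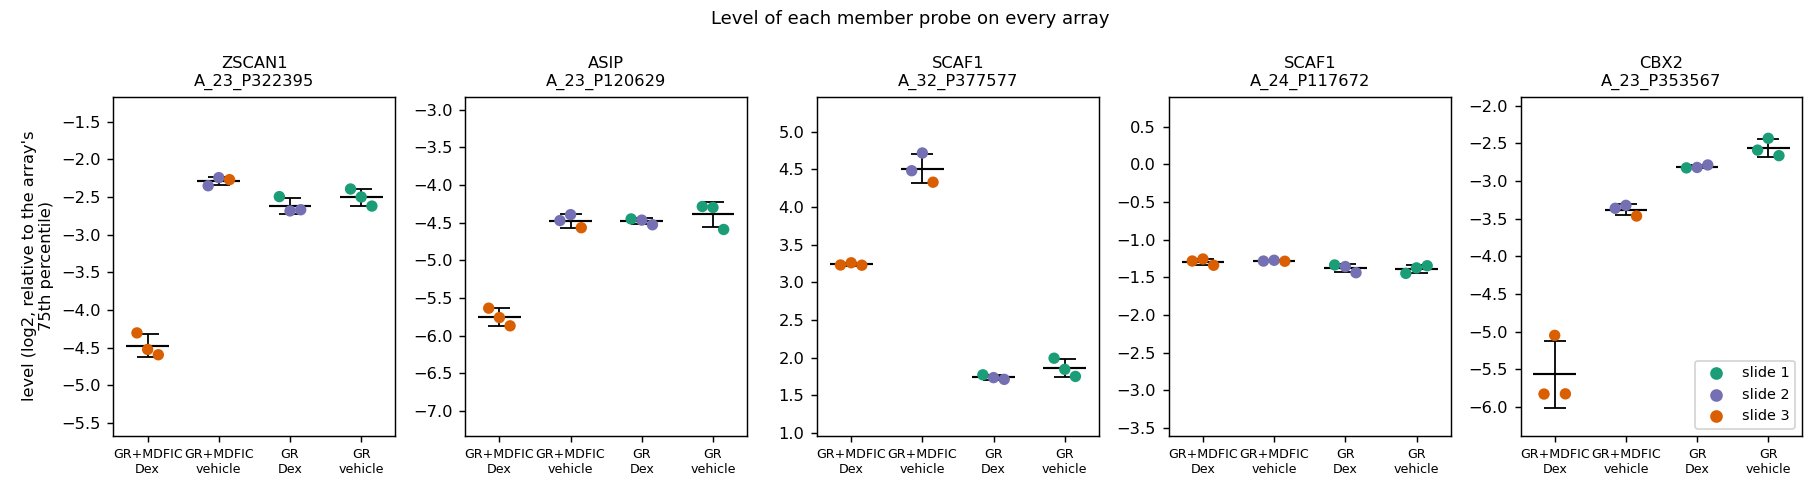
Level of the 5 probes on each of the 12 arrays (log2 signal over the 75th percentile of that array; the axis spans differ in position but not in length), with the 4 groups along the horizontal axis, points coloured by slide, and bars for the mean and SD of 3 arrays. The GR+MDFIC Dex points lie below the GR+MDFIC vehicle points for ZSCAN1, ASIP, CBX2 and the brighter SCAF1 probe, which is also higher in both groups with MDFIC, and the second SCAF1 probe is level.

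Over all 23757 accessions tested, the difference between the Dex effects passed the threshold (limma, Benjamini-Hochberg adjusted p under 0.05) for 14, which is 0.0589% of those tested. The effect was lower in GR+MDFIC cells for 13 of them (0.0547%) and higher for 1 (0.00421%). All 4 transcripts are among these 13, as the choice of members required. The count of 14 ranged between 2 and 1797 when 1 array was left out, and the highest count came without GR+MDFIC vehicle replicate 3, the vehicle array on slide 3. With slide as a fixed block it was 20, of which 3 were among the 14. Of the 14, the 4 members and 2 further accessions (THC2689579 and A_24_P480206) were well above background on all 12 arrays. Just inside the threshold stood CBX2, with a difference of -1.93, and A_24_P480206, with -0.80, and just outside it Z49090, with -0.75. Ordered by size alone, ZSCAN1 had the 93rd lowest difference of the 23757, CBX2 the 137th, ASIP the 652nd and SCAF1 the 688th.

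Dex against vehicle in GR+MDFIC cells passed the same threshold for 3217 accessions, 13.5% of those tested, with 1649 lower (6.94%) and 1568 higher (6.6%), and the 4 members were among those lower. With slide as a fixed block that count was 809, and it was 6311 without GR+MDFIC vehicle replicate 3. With median scaling the share of higher calls was 38.8%, against 48.7%. In GR cells Dex passed it for 1704 accessions, 7.17% of those tested (2.77% lower and 4.4% higher), and for 0 of the 4 members. With slide as a fixed block that count was 845. The 3 GR+MDFIC Dex arrays lay wholly below the 3 GR+MDFIC vehicle arrays for 4 of 4 members, against 16.2% of all accessions tested. The GR Dex arrays lay wholly below the GR vehicle arrays for 1 member, CBX2, against 11.8% of all accessions tested. These counts come from the arrays that chose the members and describe them only.

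Each Dex effect could also be read within 1 slide, on slide 3 for GR+MDFIC cells (3 Dex arrays against 1 vehicle array) and on slide 1 for GR cells (1 Dex array against 3 vehicle arrays). ZSCAN1 had a Dex effect of -2.20 within slide 3, against 0.0096 within slide 1. CBX2 had -2.10 within slide 3, against -0.26 within slide 1. ASIP had -1.19 within slide 3, against -0.059 within slide 1. The brighter SCAF1 probe had -1.09 within slide 3, against -0.091 within slide 1, and the second SCAF1 probe -0.0067 against 0.053. The fall in GR+MDFIC cells was thus present within slide 3 for ZSCAN1, CBX2, ASIP and the brighter SCAF1 probe, and absent for the second SCAF1 probe. Within slide 3 it rests on a single vehicle array. That array differed from the GR+MDFIC vehicle arrays of slide 2 by 0.027 for ZSCAN1, -0.12 for CBX2, -0.13 for ASIP and -0.27 for the brighter SCAF1 probe, less than each Dex effect.

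**Figure D2:**
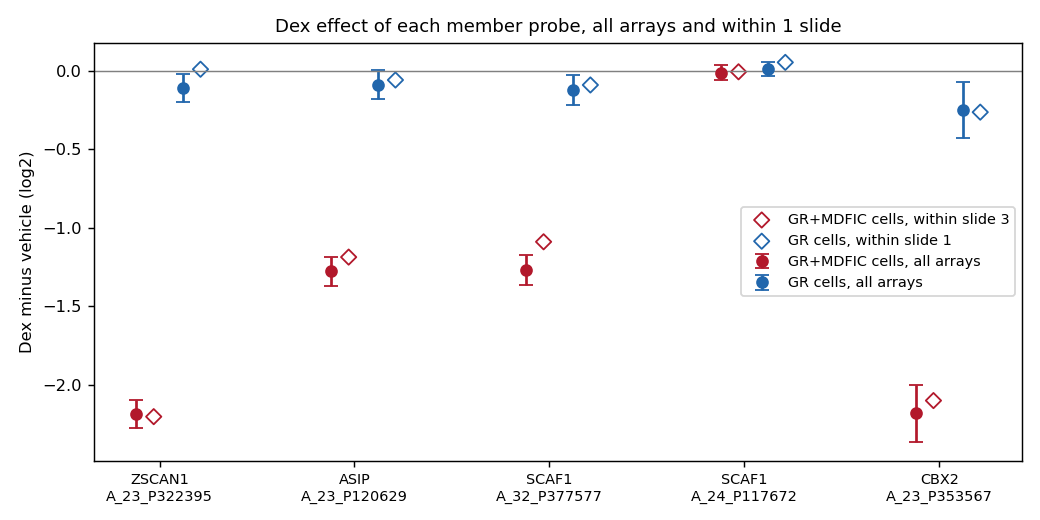
Dex minus vehicle (log2) for each probe in GR+MDFIC cells (red) and GR cells (blue), from all arrays (filled circles, with the SE of the fit) and within 1 slide (open diamonds, slide 3 for GR+MDFIC cells and slide 1 for GR cells). Within slides ZSCAN1, ASIP, CBX2 and the brighter SCAF1 probe keep an effect of -1.09 or lower in GR+MDFIC cells and lie between -0.26 and 0.0096 in GR cells.

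No slide held GR+MDFIC and GR arrays of the same treatment, but the groups that share a slide link all 4 groups. With slide as a fixed block, MDFIC in vehicle gave 2.78 for the brighter SCAF1 probe, -0.80 for CBX2, 0.39 for ZSCAN1 and 0.0053 for ASIP (log2), against 2.65, -0.82, 0.22 and -0.086 without it. On slide 2, which held GR+MDFIC vehicle and GR Dex arrays, the brighter SCAF1 probe was 2.88 higher on the GR+MDFIC vehicle arrays, and its higher level with MDFIC was therefore seen within a slide between groups that also differ in Dex. The same comparison gave -0.54 for CBX2, 0.38 for ZSCAN1 and 0.064 for ASIP.

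ZSCAN1, ASIP and CBX2 varied together over the 12 arrays. Pearson's r was 0.982 between ZSCAN1 and ASIP, 0.956 between ASIP and CBX2 and 0.912 between ZSCAN1 and CBX2. SCAF1 had r of -0.073 with ZSCAN1, -0.218 with ASIP and -0.42 with CBX2. These values describe 4 groups of arrays on 3 slides that every transcript shares, and the 3 GR+MDFIC Dex arrays were the 3 lowest for ZSCAN1, ASIP and CBX2 alike. The members were chosen on these arrays by a rule that favours a low GR+MDFIC Dex group. The values of r are therefore a description, and shared regulation was not tested.

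Among all accessions tested, the ones whose 12 array levels were most like ZSCAN1 were BF510506 (r = 0.987), ASIP (0.982) and Z49090 (0.966). For ASIP they were BF510506 (0.987), A_24_P642306 (0.986) and ZSCAN1 (0.982), and for CBX2 they were A_24_P642306 (0.967), NM_031908 (0.966) and ASIP (0.956). BF510506 had a Dex effect of -2.73 in GR+MDFIC cells and A_24_P642306 one of -3.03, but both lacked an array well above background among the GR+MDFIC Dex ones, so both values are fitted and not measured on the low side. Z49090 and NM_031908 were well above background on all 12 arrays. Their Dex effects in GR+MDFIC cells were smaller, at -0.80 and -0.16. SCAF1 was most like NM_152339 (0.995), NM_001101401 (0.992) and THC2689579 (0.986), which were well above background on all 12 arrays. With MDFIC in vehicle these were higher by 1.71, 1.49 and 3.35 on the log2 scale, and with Dex in GR+MDFIC cells they were lower, at -0.90, -0.79 and -1.13. The brighter SCAF1 probe thus shared its pattern of a high GR+MDFIC vehicle level and a lower GR+MDFIC Dex level with other accessions, for which the files give no symbol.

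ZSCAN1, ASIP and CBX2 lay close together on the array itself, a grid of 532 rows and 85 columns. Their spots were in row 205 and column 49, row 206 and column 37, and row 207 and column 36. The brighter SCAF1 probe was in row 462 and column 46, and the second in row 173 and column 57.

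The difference between the Dex effects varied with the row among dim probes, those with a mean level between -6 and -2, a range that holds ZSCAN1, ASIP and CBX2. In rows 1 to 266, 10.9% of 7015 dim probes had a difference below -1 and 0.342% had one above 1. In rows 267 to 532, 0.78% of 6664 dim probes had a difference below -1 and 11.9% had one above 1. Low differences were thus frequent in the part of the array that holds these 3 spots and rare in the other, and the pattern turned round for high ones. Within slides the shares below -1 were nearer each other, 5.65% in rows 1 to 266 and 3.74% in rows 267 to 532. Among probes with a mean level of -2 or more, where both SCAF1 probes lie, 0.215% in rows 1 to 266 and 0.0258% in rows 267 to 532 had a difference below -1.

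**Figure D3:**
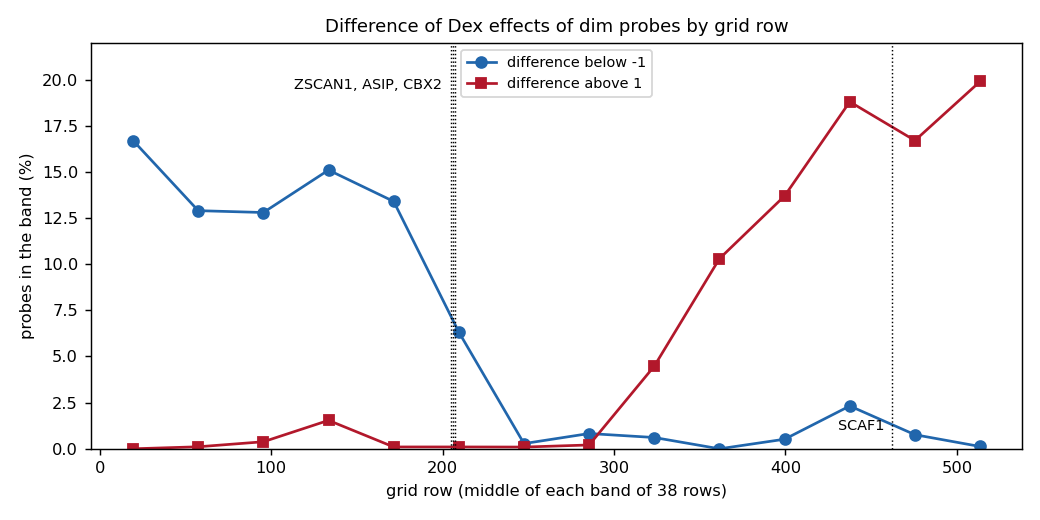
Share (%) of dim probes whose difference between Dex effects (GR+MDFIC cells minus GR cells) was below -1 (blue) or above 1 (red) on the log2 scale, in 14 bands of 38 grid rows; the line for the brighter SCAF1 probe marks its row only, since it is not a dim probe. The share below -1 is 6.32% in the band of rows 191 to 228, which holds ZSCAN1, ASIP and CBX2 (dotted lines), after 12.8% to 16.7% in the bands above it on the grid, and the share above 1 reaches 19.9% in the last band.

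The band of rows 191 to 228 held 997 dim probes with a median difference of -0.12, and 6.32% of them were below -1. Within 5 rows and 5 columns of ZSCAN1 there were 78 tested probes of any level, with a median difference of -0.13, and 21.8% of them were below -0.5, against 7.67% of all 30179 probes tested. Of these 78, 5 were below -1 and 0 were as low as ZSCAN1. CBX2 had 77 such neighbours, of which 6 were below -1 and 1 was as low as CBX2. ASIP had 78, of which 7 were below -1 and 6 were as low as ASIP, and its neighbourhood overlaps that of CBX2. The surroundings thus leaned low around all 3 spots over all arrays. Within slides, 2.56% of the ZSCAN1 neighbours had a difference below -1, near the 2.74% of all probes. That share was 8.97% for the ASIP neighbours and 10.4% for the CBX2 neighbours. The counts as low as the member take each member's own difference as the cut. That cut was milder for ASIP (-1.19) than for ZSCAN1 (-2.07) or CBX2 (-1.93), so these counts cannot be compared between members.

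Around the brighter SCAF1 probe 7.87% of 89 neighbours had a difference below -0.5, near the share over all probes. Their median difference was -0.12, against -0.011 over all probes, so these surroundings leaned low too. Within slides 10.1% of them had a difference below -1, against 2.74% of all probes. These 89 neighbours were of any level, with a median level of -1.68. Within 8 rows and columns, 17 neighbours had a mean level within 1 of that of the probe. Of these 17, 0% had a difference below -0.5, and within slides 0% had one below -1. Their median difference was -0.13 over all arrays and 0.017 within slides. Taking from each array value the median deviation of the neighbours on that array left a difference of -1.96 for ZSCAN1, -1.78 for CBX2, -1.05 for ASIP and -1.02 for the brighter SCAF1 probe. With neighbours of like level only, it was -1.90 for ZSCAN1, -1.74 for CBX2, -0.90 for ASIP and -1.01 for SCAF1. With another background correction (normexp) and quantile scaling the difference was -1.04 for ZSCAN1, -0.36 for ASIP and -0.59 for CBX2. All these values were below 0, and what part of them the place on the array or the dim signal accounts for was not tested.

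**Figure D4:**
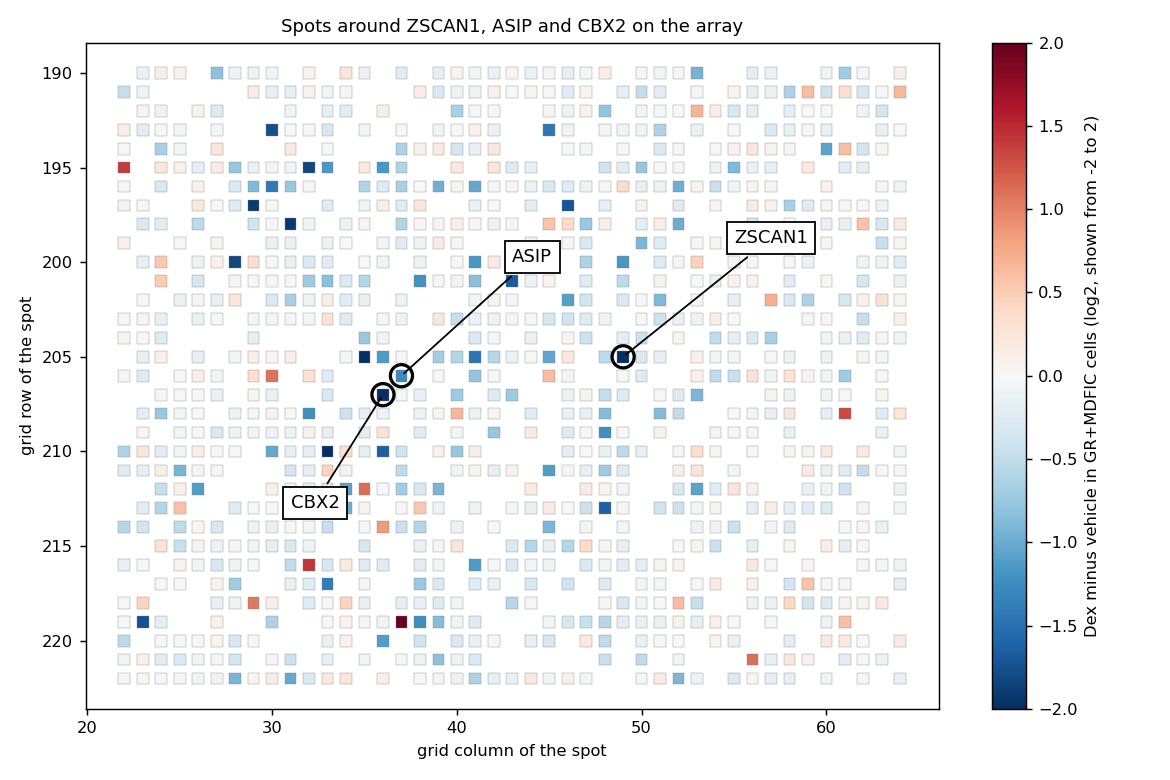
Dex minus vehicle in GR+MDFIC cells (log2, colour, shown from -2 to 2) for the tested spots around ZSCAN1, ASIP and CBX2, by grid row and column. The 3 circled spots lie in rows 205 to 207 among mostly pale spots with scattered low (blue) ones, and fewer high (red) ones.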

How the data were processed

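Total RNA of 12 COS-1 samples was Cy3-labelled and hybridised to one-colour Agilent arrays with human probes, per the labels. The deposited files give the processed signal of each spot as an intensity on a linear scale, from which Agilent Feature Extraction had subtracted the background, per the file headers (version 12.0.3.1 on slide 3, and 12.0.0.7 on the others). Each spot also has flags of another kind, deposited by the authors as 0 or 1, for being well above background, for saturation and for outlier status. The series table holds the same intensities (largest difference 0), as deposited by the authors.

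Levels were the log2 of the processed signal minus the 75th percentile over each array's 43376 non-control spots. Feature outlier spots were set to missing, and spots of 1 probe were averaged. A probe was kept if every array of 1 group or more had it well above background and each group had at least 2 unflagged arrays. The probe with the highest mean stood for its accession, which left 30179 probes and 23757 accessions. A model of 4 group means was fitted to the 12 arrays with limma 3.58.1 in R 4.3.3 (8 residual degrees of freedom), two-sided, with Benjamini-Hochberg adjustment over all accessions. It was tested on simulated data with independent noise and no effect of slide or grid row, so that test does not bear on either. The number of arrays limits the precision.

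The members and lists were chosen with earlier results of these data known. Named transcripts are all member probes, the 3 accessions most like each member by Pearson's r, and those called, or next to be called, for the difference of Dex effects. The member symbols came with the choice of members. The files give no symbols and no genome or annotation was used here. The planned gene lists, cell type markers, chromosome neighbours, the check of MDFIC and GR and probe sequences were therefore not analysed here, and neither the transfection nor the cell type was checked. Alternatives were other scalings, background correction, filters, the mean of probes, slide and replicate blocks, an intensity trend with robust variance and leaving out each array. Correction by neighbouring spots and missing values for background flags were added after seeing the data. Normexp (offset 50) used spot and background medians.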

Additional observations from a re-analysis of the deposited data

Results flagged for a closer look

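For 14 accessions the effect of Dex in GR+MDFIC cells differed from that in GR cells (limma, Benjamini-Hochberg adjusted p under 0.05). The 4 members were chosen on this contrast, so their differences of -2.07 (ZSCAN1), -1.93 (CBX2), -1.19 (ASIP) and -1.15 (SCAF1) on the log2 scale are a description only. With slide as a fixed block, 3 of the 14 kept the call. Of the 10 that are no members, NM_173538 and BF510506 kept it and the other 8 lost it. Most of the 4 members thus lost the call too.

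Among the other accessions, THC2689579 had a difference of -0.88 and A_24_P480206 one of -0.80, both with all 12 arrays well above background. A_23_P126328 (-1.30) was well above background on 1 of 3 GR+MDFIC Dex arrays. It lay in row 198 and column 52, in the band of rows 191 to 228 that also holds ZSCAN1, ASIP and CBX2. BF510506 (-2.62), A_24_P642306 (-2.99), AK095964 (-2.44) and NM_001143833 (-1.43) were well above background on 0 GR+MDFIC Dex arrays, so their sizes are fitted values and no measured folds.

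ENST00000449362 (-1.57) was well above background on 2 of 3 GR vehicle arrays and NM_198148 (-1.43) on 0, and their fitted Dex effects in GR cells were 1.33 and 1.88. NM_173538, with 3.69, had the higher Dex effect in GR+MDFIC cells. It was well above background on the 3 GR vehicle arrays and on none of the other 9. Of the 14 spots, 10 lay in grid rows 1 to 266, and the part of the place on the array in these differences was not tested.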

How the results depend on the processing

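The difference stayed below 0 under every alternative run for ZSCAN1, CBX2, ASIP and the brighter SCAF1 probe. It changed sign for the second SCAF1 probe, which lay near 0. The members were chosen for a difference below 0 on these same arrays, so its sign here is a description and no test. The series table, the filters, the replicate block and the intensity trend leave a member probe's difference unchanged by construction. Slide as a fixed block and the reading within slides give the same difference, so they are not separate checks. The ranges were -2.21 to -1.04 for ZSCAN1, -2.19 to -0.59 for CBX2, -1.25 to -0.36 for ASIP, -1.24 to -0.59 for the brighter SCAF1 probe and -0.06 to 0.03 for the second. The lowest sizes came with normexp and quantile scaling (-1.04 for ZSCAN1, -0.59 for CBX2, -0.36 for ASIP) and with the mean of both SCAF1 probes (-0.59). Slide as a fixed block gave -2.21 for ZSCAN1 and -0.999 for SCAF1. Subtracting neighbouring spots gave -1.96, -1.05, -1.02 and 0.028 for ZSCAN1, ASIP, SCAF1 and its second probe, and like-level neighbours -1.90, -0.90, -1.01 and 0.023. Without 1 array the ranges were -2.16 to -2.01 for ZSCAN1, -2.19 to -1.80 for CBX2, -1.25 to -1.09 for ASIP, -1.24 to -1.04 for SCAF1 and -0.05 to 0.01 for its second probe.

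The count of 14 for the difference was 9 with normexp and quantile scaling, 3 with probes well above background on all 12 arrays, 20 with slide as a fixed block (3 of them among the 14), 6 with slide as a random block (within-slide correlation 0.122) and 5 with an intensity trend and robust variance. Without 1 array it ranged from 2 to 1797, with 2 without GR+MDFIC vehicle replicate 1 or GR Dex replicate 3, 3 without GR+MDFIC Dex replicate 1 or GR vehicle replicate 2, 4 and 5 without GR Dex replicates 2 and 1, 7 and 8 without GR vehicle replicates 1 and 3, 9 without GR+MDFIC vehicle replicate 2, and 22, 95 and 1797 without GR+MDFIC Dex replicate 3, GR+MDFIC Dex replicate 2 and GR+MDFIC vehicle replicate 3. The cause was not tested. For Dex in GR+MDFIC cells the count was 809 with slide as a fixed block and 1815 to 6311 without 1 array (1815, 1980 and 6311 without GR+MDFIC vehicle replicates 1, 2 and 3, and 2114 without GR+MDFIC Dex replicate 3). For Dex in GR cells it was 845 with slide as a fixed block and 1073 to 1780 without 1 array (1073 and 1120 without GR vehicle replicates 3 and 1, and 1090 without GR Dex replicate 1 or 2). The causes were not tested.

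With the replicate number as a block, 5 accessions were called for the difference. The levels showed no pairing by these numbers. The deviations of same-numbered arrays of different groups correlated between -0.243 and 0.144 (median 0.0262, 18 pairs). For arrays of other numbers and groups the range was -0.233 to 0.227 (median -0.00763, 36 pairs). Whether same-numbered samples were prepared together cannot be told from these correlations. Of the values for the other named accessions, 244 kept their side of the threshold, 115 lost their call and 15 gained one. Low signal over background limits ASIP and CBX2 on the GR+MDFIC Dex arrays. The ZSCAN1 spots there also read low, at 41.5 to 44 with local backgrounds of 22 to 24.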
